A study of Homo sapiens with 6 samples.

Results

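The 38 genes of cholesterol and fatty acid synthesis described here were taken by symbol from the 60675 genes of a count table of SUM159, an established cell line from a triple-negative breast cancer. Their levels were set against the label of each library and against its level of DAPK3 RNA. All 38 were found and all passed the filter on low counts, with 18 to 20839 expected counts per gene and library. There were 3 libraries labelled control, of DAPK3 wild-type genotype, and 3 labelled DAPK3 KO, from 1 knockout line numbered 3. DAPK3 encodes a kinase related to death-associated protein kinase 1, and the study asked which genes differ after its knockout. The cells of both labels grew in Ham's medium with 5% fetal bovine serum, HEPES, insulin and hydrocortisone, and serum carries lipoprotein cholesterol that cells can take up. Whether the 3 libraries of a label are separate cultures is not stated, and the p-values below therefore reflect a spread between libraries that may be technical. A single line was compared, so an effect of the knockout and a property of that line cannot be told apart.

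Cells build cholesterol from acetyl-CoA in a long chain of steps, in which the mevalonate branch makes the isoprenoid units and the sterol branch joins and trims them. The transcription factors SREBP-1 and SREBP-2, made from SREBF1 and SREBF2, switch these genes on when sterols run short. The escort protein SCAP carries them out of the endoplasmic reticulum for activation, and the INSIG proteins hold SCAP back when sterols are plentiful. INSIG1 is itself an SREBP target, and its RNA is widely used as a readout of the pathway. Efflux genes such as ABCA1 and ABCG1 answer to LXR, a nuclear receptor that is switched on by oxysterols, which form when sterols accumulate.

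DAPK3 (ENSG00000167657, GRCh38 chromosome 19, 3958453 to 3971123) stood at similar levels in control R2 and in DAPK3 KO R1 and R3. In DAPK3 KO R2 it stood near control R1 and R3. In CPM, the counts of a gene per 1e+06 counts of its library after TMM scaling, it stood at 26.2, 10.5 and 26.1 in the control libraries R1 to R3, against 13.1, 27.2 and 11.2 in the DAPK3 KO libraries R1 to R3. Library totals ran from 16312184 to 22970823 expected counts. RNA counts do not measure DAPK3 protein, so they cannot show whether the knockout removed it. Whether the R2 libraries were exchanged or differ for another reason was not tested. If their labels are exchanged, every label comparison of all 6 libraries mixes the groups. No library was moved between groups: values are given by label, and beside that in the order of DAPK3 RNA, where DAPK3 KO R2, control R1 and control R3 carried the most. The libraries left out in a comparison without both R2 libraries were chosen for their DAPK3 level. Of the 10 markers of a basal or mesenchymal breast line, VIM ran from 1425 to 3584 CPM and CD44 from 304 to 526, while the luminal hormone receptor genes ESR1 and PGR stood at no more than 0.478 and at 0 CPM. The mesenchymal factor TWIST1 was low, at 0.691 to 2.39 CPM. The libraries stood apart in this list: KRT5 (2.57 to 220 CPM), KRT14 (0.453 to 11.2), KRT17 (1.124 to 60.3) and ITGB4 (80.9 to 481) were lower in all 3 libraries with the most DAPK3 RNA than in the other 3, and VIM, SPARC, ZEB1 and TWIST1 were higher. The part of this split in the results below was not tested. Other luminal markers were present, with KRT18 at 276 to 449 CPM and XBP1 at 236 to 475. Of the tissues known for high lipid synthesis, the hepatocyte markers summed to 0 to 0.151 CPM and the adipocyte markers to 1.39 to 4.08, with LEP at 0 in all 6 libraries and ADIPOQ at no more than 0.124. Blood and immune markers summed to 10.8 to 14.9 CPM.

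RefSeq promoter windows (GRCh38.p14) were found for 33 of the 38 genes, all but ACAT2, FDFT1, SQLE, FASN and ABCG1. The stretches below are shown because they precede INSIG1 and 4 synthesis genes that were among those with the smallest p in the comparison of the labels. Each is the part of the 250 bases before the RefSeq start that lies outside the exons of protein-coding genes in GENCODE release 29, written 5′ to 3′ on the strand of the gene: INSIG1 chr7:155297628-155297775 (plus strand), NSDHL chrX:152830813-152830966 (plus strand), MSMO1 chr4:165327419-165327622 (plus strand), HMGCS1 chr5:43313513-43313662 (minus strand), HSD17B7 chr1:162790452-162790701 (plus strand). Capitals mark CCAAT, the box bound by NF-Y, a known partner of SREBP, and CACNCCAC, the core of the sterol regulatory element, on either strand (CCAAT reads ATTGG in the other orientation).
INSIG1: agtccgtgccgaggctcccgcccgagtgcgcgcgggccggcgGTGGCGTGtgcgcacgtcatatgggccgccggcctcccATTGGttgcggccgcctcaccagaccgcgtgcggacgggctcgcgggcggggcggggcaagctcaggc
NSDHL: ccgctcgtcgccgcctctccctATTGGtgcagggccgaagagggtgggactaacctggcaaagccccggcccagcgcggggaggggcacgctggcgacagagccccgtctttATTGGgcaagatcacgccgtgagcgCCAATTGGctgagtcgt
MSMO1: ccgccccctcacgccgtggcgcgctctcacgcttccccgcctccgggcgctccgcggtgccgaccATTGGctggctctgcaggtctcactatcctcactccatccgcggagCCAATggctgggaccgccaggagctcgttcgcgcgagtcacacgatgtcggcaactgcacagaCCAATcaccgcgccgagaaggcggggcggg
HMGCS1: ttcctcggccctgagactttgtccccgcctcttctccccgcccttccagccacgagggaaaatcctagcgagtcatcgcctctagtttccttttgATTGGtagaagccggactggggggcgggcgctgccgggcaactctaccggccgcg
HSD17B7: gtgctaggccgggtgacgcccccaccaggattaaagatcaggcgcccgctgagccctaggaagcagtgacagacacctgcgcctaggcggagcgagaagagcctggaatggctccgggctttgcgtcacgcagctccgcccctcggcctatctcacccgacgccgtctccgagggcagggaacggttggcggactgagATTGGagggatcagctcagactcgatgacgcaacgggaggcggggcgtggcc

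INSIG1 held 1 match to each motif in its stretch, GTGGCGTG beginning 208 bases and ATTGG 170 bases before the start. NSDHL showed 4 CCAAT matches, 2 of which overlapped as CCAATTGG, MSMO1 showed 3, and HMGCS1 and HSD17B7 showed 1 each. Over the whole windows, CCAAT was found before 21 of 33 genes (63.6%), against 35.5% of the 9866 windows of genes that were tested and 32% of all 35116 windows. It was found in 8 of the 9 sterol branch windows and 4 of the 6 mevalonate windows, but in 5 of 10 windows of fatty acid genes. CACNCCAC was found before 4 of 33 genes (12.1%), against 4.49% of windows of tested genes, and the 4 were INSIG1, SREBF2, SCD and ABCA1. The GC box GGGCGG was found in 90.9% of the 33 windows and in 66.9% of windows of tested genes, and the E-box CACGTG in 15.2% and 9.06%. A match describes letters in a window and is not a measured binding site.

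In the comparison of the labels, nearly all genes of cholesterol synthesis stood lower in the libraries labelled DAPK3 KO, while no single gene reached the adjusted threshold. Of the 38 genes, 17 had all 3 DAPK3 KO libraries below all 3 control libraries and 0 had the reverse, against 6.86% and 6.97% of the 14613 genes tested. At an unadjusted p under 0.05, 13 were lower and 0 higher, against 4.17% and 3.49% of all genes tested. The median log2 fold change was −0.41, and over all genes tested −0.00034. By edgeR's quasi-likelihood test with Benjamini-Hochberg adjustment, 0 of 38 members and 0% of all genes (0 of 14613) were called, with 1119 genes at an unadjusted p under 0.05. DESeq2 called 124 genes, INSIG1 and HMGCS1 among them, and limma-voom called 0. Without control R1, which held the highest value of 28 of the 38 genes, 7 were lower at an unadjusted p under 0.05, and without DAPK3 KO R1 8 were. The share of all genes tested was not counted in these fits, so their counts have no background beside them.

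**Figure D1:**
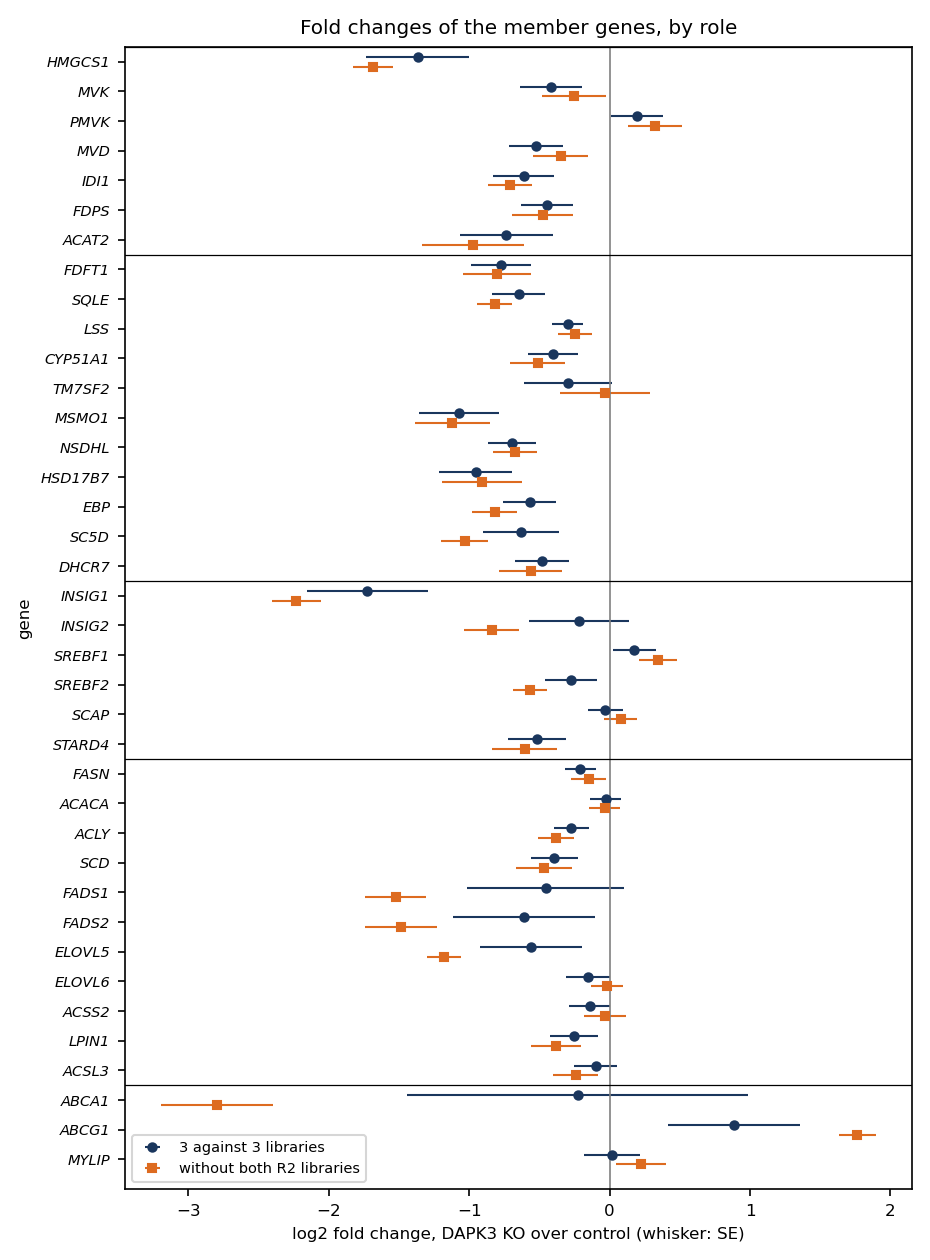
Log2 fold change of DAPK3 KO over control (x axis) for the 38 genes (y axis), grouped by horizontal lines into mevalonate, sterol, control and transport, fatty acid, and efflux and LXR target genes from top to bottom. Dark circles are the comparison of 3 with 3 libraries and orange squares the comparison without both R2 libraries, with whiskers of 1 SE; every sterol gene lies below 0 in both, and ABCA1 and ABCG1 lie on opposite sides of 0.

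Among the mevalonate genes, HMGCS1 (ENSG00000112972, chromosome 5, 43289395 to 43313512), which makes HMG-CoA from acetyl units, differed most between the labels. It stood at 99.7, 34.1 and 81.2 CPM in control R1 to R3, against 28.6, 26.6 and 28.2 in the DAPK3 KO libraries R1 to R3. The DAPK3 KO libraries lay close together below all controls, and control R2 was the nearest to them. The means were 71.7 ± 33.8 CPM (SD, n = 3) and 27.8 ± 1.08 (SD, n = 3). Its log2 fold change came to −1.37 (SE 0.37; edgeR adjusted p = 0.635).

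MVD, which makes isopentenyl pyrophosphate, stood at 12.8, 14.3 and 11.3 CPM under the control label, against 9.03, 7.67 and 10.03 under DAPK3 KO. ACAT2, the cytosolic thiolase that starts the chain, stood at 67.3, 44.3 and 43.7 CPM under the control label, against 17.7, 36.5 and 39.1 under DAPK3 KO. Neither pair of groups overlapped, although the lowest ACAT2 value came from DAPK3 KO R1 alone. The log2 fold changes were −0.52 (SE 0.19) for MVD and −0.73 (SE 0.33) for ACAT2, which shares exon sequence with TCP1 and SOD2 on the other strand.

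IDI1, the isomerase of the isoprenoid unit, stood at 55.4, 33.1 and 45.2 CPM under the control label, against 33.9, 25.3 and 28.4 under DAPK3 KO. Only control R2 and DAPK3 KO R1 crossed, narrowly, and the log2 fold change was −0.61 (SE 0.22). FDPS, which builds farnesyl pyrophosphate, had a log2 fold change of −0.45 (SE 0.19) and MVK, mevalonate kinase, one of −0.42 (SE 0.22), both with overlapping groups. PMVK, the kinase of the following step, was the 1 mevalonate gene above 0, at 0.20 (SE 0.18), with 17.2, 21.4 and 22.0 CPM under the control label, against 27.5, 19.8 and 22.1 under DAPK3 KO. So 6 of 7 mevalonate genes had a negative log2 fold change, 3 of them at an unadjusted p under 0.05.

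The sterol branch stood lower throughout, with 11 of 11 genes below 0, a median of −0.63 on the log2 scale, 9 with no overlap of the groups and 8 lower at an unadjusted p under 0.05. Summed over the 11 genes, the level was 988, 741 and 755 CPM in control R1 to R3, against 499, 571 and 626 in the DAPK3 KO libraries R1 to R3. The 3 DAPK3 KO sums all lay below the 3 control sums.

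FDFT1, squalene synthase and the first step committed to sterols, stood at 179, 127 and 110 CPM under the control label, against 71.0, 76.9 and 95.6 under DAPK3 KO. SQLE, squalene epoxidase and a rate-limiting enzyme of the branch, stood at 139, 84.6 and 122 CPM under the control label, against 72.5, 71.2 and 77.1 under DAPK3 KO. In both genes control R1 was the highest, and the lowest control lay above the highest DAPK3 KO library. Their log2 fold changes were −0.77 (SE 0.21) and −0.65 (SE 0.19).

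LSS, which closes the lanosterol rings, stood at 121, 120 and 114 CPM under the control label, against 94.2, 89.2 and 105 under DAPK3 KO. CYP51A1, the lanosterol demethylase, stood at 170, 131 and 125 CPM under the control label, against 88.0, 115 and 120 under DAPK3 KO. The groups of CYP51A1 missed each other narrowly, and 79.4% of its exon bases are shared with an annotated gene on the same strand, so its counts are uncertain to that extent. The log2 fold changes were −0.30 (SE 0.11) and −0.40 (SE 0.18).

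The C4 demethylation enzymes MSMO1, NSDHL and HSD17B7, which remove methyl groups from the sterol ring, all had separate groups. MSMO1 (ENSG00000052802, chromosome 4, 165327623 to 165343160) stood at 50.2, 27.0 and 28.0 CPM under the control label, against 16.8, 13.8 and 19.5 under DAPK3 KO, with a log2 fold change of −1.07 (SE 0.28). NSDHL (ENSG00000147383, chromosome X, 152830967 to 152869729) stood at 31.3, 24.6 and 26.7 CPM under the control label, against 17.5, 14.3 and 19.1 under DAPK3 KO, with a log2 fold change of −0.69 (SE 0.17). HSD17B7 (ENSG00000132196, chromosome 1, 162790702 to 162812817) stood at 13.2, 9.51 and 7.95 CPM under the control label, against 5.31, 4.45 and 6.03 under DAPK3 KO, with a log2 fold change of −0.95 (SE 0.26). In each of the 3 genes DAPK3 KO R2 was the lowest library and carried the most DAPK3 RNA. Their edgeR adjusted p was 0.635 in each case.

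EBP, a sterol isomerase, stood at 78.3, 52.5 and 64.9 CPM under the control label, against 36.6, 50.1 and 45.3 under DAPK3 KO, with a log2 fold change of −0.57 (SE 0.19). DHCR7, which makes cholesterol from its last precursor in one of 2 routes, stood at 161, 137 and 118 CPM under the control label, against 76.4, 108 and 114 under DAPK3 KO, with a log2 fold change of −0.48 (SE 0.19). Both kept the groups apart. SC5D, a desaturase, overlapped between the labels and was higher in the 3 libraries with the most DAPK3 RNA, at 41.5, 22.6 and 34.7 CPM under the control label, against 17.2, 26.3 and 20.4 under DAPK3 KO. TM7SF2, a sterol reductase, was the lowest of the branch at 2.47 to 4.83 CPM, and its groups overlapped.

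**Figure D2:**
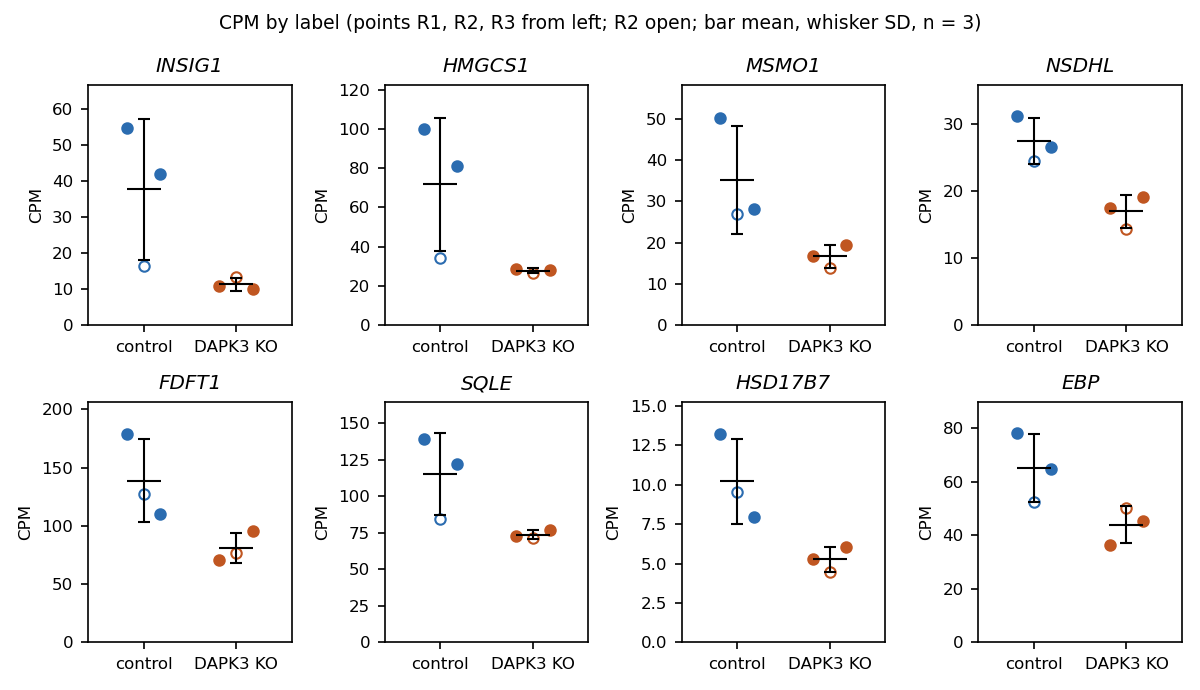
CPM (y axis, from 0) of the 8 genes with the smallest p, by label (x axis), with 1 point per library, open points for the R2 libraries, and a bar and whisker for the mean and SD of 3 libraries. All 3 DAPK3 KO points lie below all 3 control points in each panel, while control R2 lies close to the highest DAPK3 KO library for EBP (52.5 against 50.1 CPM) and SQLE (84.6 against 77.1) and farther from it for HSD17B7 (9.51 against 6.03).

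Among the genes that control the pathway, INSIG1 had the largest fold change of the 38 genes and the other members stood at smaller distances. INSIG1 RNA (ENSG00000186480, chromosome 7, 155297776 to 155310235) stood at 54.8, 16.3 and 42.0 CPM in control R1 to R3, against 10.8, 13.4 and 9.99 in the DAPK3 KO libraries R1 to R3. The means were 37.7 ± 19.6 CPM (SD, n = 3) and 11.4 ± 1.79 (SD, n = 3), and the control SD was the larger. Control R1 and R3 were far above the other 4 libraries, and control R2 lay just above the DAPK3 KO libraries. The log2 fold change came to −1.72 (SE 0.43; edgeR adjusted p = 0.635), and it ran from −2.10 to −1.35 when single libraries were left out. INSIG2, its paralog that is not under the same sterol control, stood at 14.9, 8.36 and 12.7 CPM under the control label, against 7.92, 15.4 and 7.64 under DAPK3 KO. INSIG2 thus split by DAPK3 RNA, with the groups of the labels overlapping and a log2 fold change of −0.22 (SE 0.36).

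SREBF2, which encodes the factor for cholesterol genes, stood at 294, 219 and 254 CPM under the control label, against 182, 261 and 192 under DAPK3 KO. SREBF1, which encodes the factor tied more to fatty acid genes, stood at 62.0, 84.6 and 75.0 CPM under the control label, against 90.2, 74.5 and 85.8 under DAPK3 KO. Both overlapped between the labels and split by DAPK3 RNA, in opposite directions. SCAP stood between 105 and 131 CPM with a log2 fold change of −0.03 (SE 0.12). STARD4, a carrier that moves sterol between membranes, stood at 26.9, 18.5 and 17.5 CPM under the control label, against 13.6, 14.6 and 15.8 under DAPK3 KO, with no overlap and a log2 fold change of −0.52 (SE 0.21).

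Fatty acid genes had smaller log2 fold changes than sterol genes at the median, a difference that was not tested, with 11 of 11 below 0, a median of −0.25 on the log2 scale, 3 without overlap and 0 at an unadjusted p under 0.05. SCD, the desaturase that makes oleate, had the highest level per kilobase of exon of all 38 genes at 142 CPM per kb, followed by ACLY at 92.3 CPM per kb. SCD stood at 1018, 833 and 742 CPM under the control label, against 549, 691 and 734 under DAPK3 KO, and control R3 lay just above DAPK3 KO R3. ACLY, which supplies cytosolic acetyl-CoA from citrate, stood at 597, 484 and 498 CPM under the control label, against 410, 461 and 438 under DAPK3 KO. FASN, fatty acid synthase, stood at 315, 350 and 361 CPM under the control label, against 315, 272 and 302 under DAPK3 KO, so that control R1 and DAPK3 KO R1 were equal to 3 digits. The log2 fold changes were −0.39 (SE 0.17) for SCD, −0.27 (SE 0.12) for ACLY and −0.21 (SE 0.11) for FASN.

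ACACA, the carboxylase that makes malonyl-CoA, was nearly level, with 210 to 239 CPM in control and 203 to 227 in DAPK3 KO and a log2 fold change of −0.03 (SE 0.11). ELOVL6, which lengthens saturated chains, ACSS2, which activates acetate, LPIN1, a phosphatidate phosphatase, and ACSL3, a long-chain acyl-CoA synthetase, also overlapped. Their log2 fold changes ran from −0.25 for LPIN1 to −0.10 for ACSL3.

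S phase genes stood lower by label as the sterol genes did, while G2 and M phase genes overlapped more between the labels. Of 20 S phase genes, 16 were lower at an unadjusted p under 0.05, against 4.17% of all genes tested. Their median stood at −0.66 on the log2 scale. Their summed level was 2738, 2000 and 2535 CPM under the control label, against 1218, 1573 and 1621 under DAPK3 KO. Among 20 genes of G2 and M phase 12 passed the same p, all lower, their median stood at −0.55 and their summed levels at 3539, 2326 and 3003 CPM under the control label, against 1623, 2347 and 2058 under DAPK3 KO. The groups did not overlap in 16 of the S phase genes and in 8 of the G2 and M phase genes, all lower, against 6.86% of all genes tested. The G2 and M phase sum was slightly higher in DAPK3 KO R2 than in control R2. Of the 20 G2 and M phase genes, 11 were higher in all 3 libraries with the most DAPK3 RNA, against 22.2% of all genes tested. MCM7 ran at 326 to 373 CPM in control and 165 to 257 in DAPK3 KO, MCM3 at 183 to 291 CPM in control and 104 to 147 in DAPK3 KO, TOP2A at 423 to 735 CPM in control and 306 to 466 in DAPK3 KO and TPX2 at 256 to 348 CPM in control and 184 to 274 in DAPK3 KO. The part of cell cycle gene levels in the sterol result was not tested, and in bulk RNA fewer cells of a kind and less RNA per cell cannot be told apart. Mitochondrial transcripts summed to 44266, 46814 and 69056 CPM under the control label, against 53848, 44916 and 41501 under DAPK3 KO, with 0 of 13 at an unadjusted p under 0.05.

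Other genes of the pathway were less even. Of 60 tested of 69 listed, 5 were lower and 2 higher at an unadjusted p under 0.05, against 4.17% and 3.49% of all genes tested. The higher count is near that share. The median log2 fold change was −0.07. The 5 included 4 of 10 in the list of sterol handling genes. TMEM97, a sterol-responsive membrane protein, stood at 62.2, 41.0 and 59.6 CPM under the control label, against 21.8, 26.8 and 29.7 under DAPK3 KO (log2 fold change −1.06, SE 0.21). C14orf1, which encodes the scaffold ERG28 of the C4 demethylation enzymes, stood at 33.4, 27.1 and 21.1 CPM under the control label, against 13.6, 13.6 and 16.5 under DAPK3 KO (log2 fold change −0.90, SE 0.21). Both kept the groups apart, as the C4 enzymes themselves did. The other 2 lower genes of that list were NPC2, a lysosomal cholesterol carrier, at −0.50 (SE 0.18), and LBR, a nuclear membrane sterol reductase, at −0.56 (SE 0.22), and HSD17B12, of fatty acid elongation, was higher at 0.28 (SE 0.10). These 3 were chosen after their values were seen. In the list of further fatty acid and lipid genes LPIN3 had the smallest p, at a log2 fold change of −0.67 (SE 0.26), and HACD2 the next at −0.47 (SE 0.20). DHDDS, of dolichol synthesis, stood at 0.30 (SE 0.13). Of 11 further genes of SREBP and LXR control, 0 passed either way, with NR1H2 at 0.26 (SE 0.15) and TMEM33 at 0.18 (SE 0.19). Of 4 further LXR targets tested, 0 passed, with LPCAT3 at −0.27 (SE 0.12).

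The order of the libraries by DAPK3 RNA gave another grouping of the members. Of the 38 genes, 7 were higher in all of DAPK3 KO R2, control R1 and control R3 than in the other 3 libraries, and 3 were lower, against 22.2% and 21.3% of all genes tested. The members' shares are below this background. The 7 were SC5D, INSIG2, SREBF2, FADS1, FADS2, ELOVL5 and ABCA1, and the 3 were SREBF1, ABCG1 and MYLIP. No mean or test was taken over these sets of libraries. The fit with DAPK3 as a covariate and the comparison without both R2 libraries, given below, do use the DAPK3 level.

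**Figure D3:**
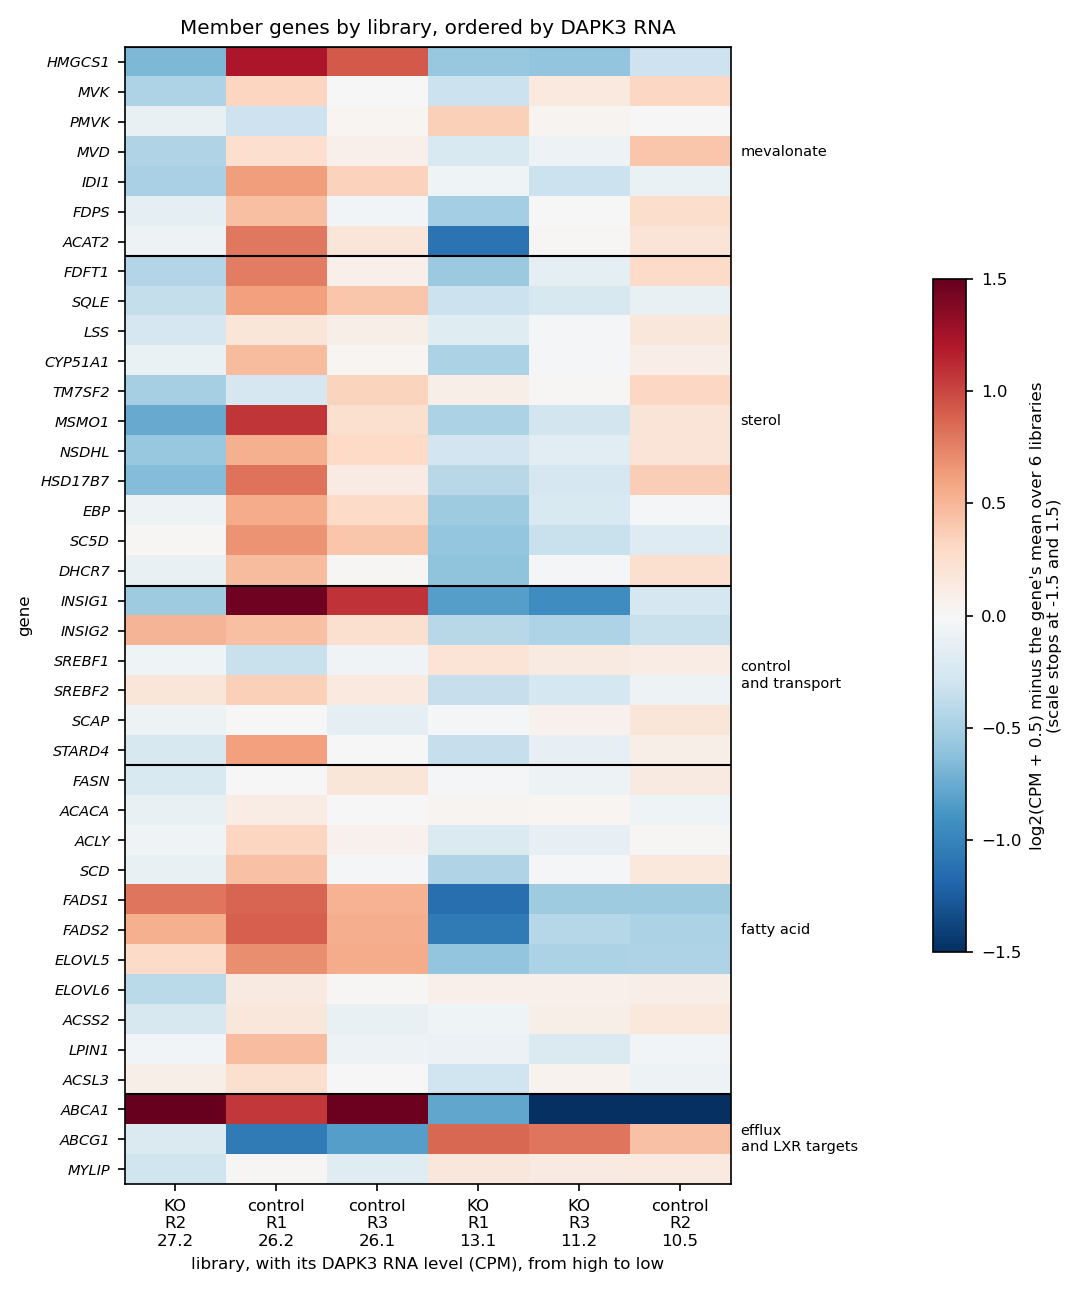
Log2(CPM + 0.5) of each of the 38 genes (rows) minus its mean over 6 libraries (colour, limited to −1.5 to 1.5), with libraries (columns) from the highest DAPK3 RNA at 27.2 CPM on the left to the lowest at 10.5 on the right. In the sterol rows DAPK3 KO R2, in the first column, is blue or near white, while the rows of FADS1, FADS2, ELOVL5 and ABCA1 differ in colour between the left 3 and right 3 columns.

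The 3 genes of polyunsaturated fatty acid synthesis behaved alike in this order. FADS1 (ENSG00000149485, chromosome 11, 61799625 to 61829318), the delta-5 desaturase, stood at 318, 334 and 262 CPM in DAPK3 KO R2, control R1 and control R3 and at 83.3, 126 and 126 in DAPK3 KO R1, DAPK3 KO R3 and control R2. FADS2 (ENSG00000134824, chromosome 11, 61792980 to 61867354), the delta-6 desaturase, whose exons overlap those of FADS1 on the opposite strand, stood at 22.6, 29.1 and 22.7 CPM and at 7.17, 11.4 and 10.9 in the same order. ELOVL5, which lengthens their products, stood at 135, 181 and 163 CPM and at 73.6, 79.4 and 80.01. In all 3 genes control R2 lay with the lower libraries and DAPK3 KO R2 with the higher ones, and the label comparison gave wide errors, as in −0.46 (SE 0.56) for FADS1. Of the 6 fibroblast markers, COL1A1, COL3A1 and PDGFRB divided the libraries the same way, and DCN, PDGFRA and LUM did not. The sum over the list, most of it COL1A1, was 590, 565 and 699 CPM in DAPK3 KO R2, control R1 and control R3 and 108, 81.7 and 110 in DAPK3 KO R1, DAPK3 KO R3 and control R2, with LUM at no more than 0.293 CPM in any library. PDGFRA was highest in DAPK3 KO R1, at 39.2 CPM, against 24.5 in DAPK3 KO R2. The part of these markers in the result was not tested.

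The efflux genes differed in opposite directions in this order. ABCA1 (ENSG00000165029, chromosome 9, 104781002 to 104928237), which loads cholesterol onto apolipoprotein A-I, stood at 17.5, 10.1 and 13.5 CPM in DAPK3 KO R2, control R1 and control R3 and at 2.44, 1.04 and 0.860 in DAPK3 KO R1, DAPK3 KO R3 and control R2. ABCG1 (ENSG00000160179, chromosome 21, 42199689 to 42297244), which passes cholesterol to mature HDL, stood at 82.6, 45.9 and 54.1 CPM and at 175, 168 and 131 in the same order. The libraries with the most ABCA1 RNA thus had the least ABCG1 RNA, although both are textbook LXR targets. MYLIP, a sterol-induced ubiquitin ligase also under LXR, varied little, from 10.6 to 14.8 CPM. At both DAPK3 levels the DAPK3 KO libraries had more ABCA1 and more ABCG1 than the controls. These were 2 of the 38 genes, a share below the 19% of all genes tested. For ABCA1 the lower level rests on few counts, with 1.04 CPM in DAPK3 KO R3 against 0.860 in control R2. Its log2 fold change between the labels was −0.23 (SE 1.22).

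**Figure D4:**
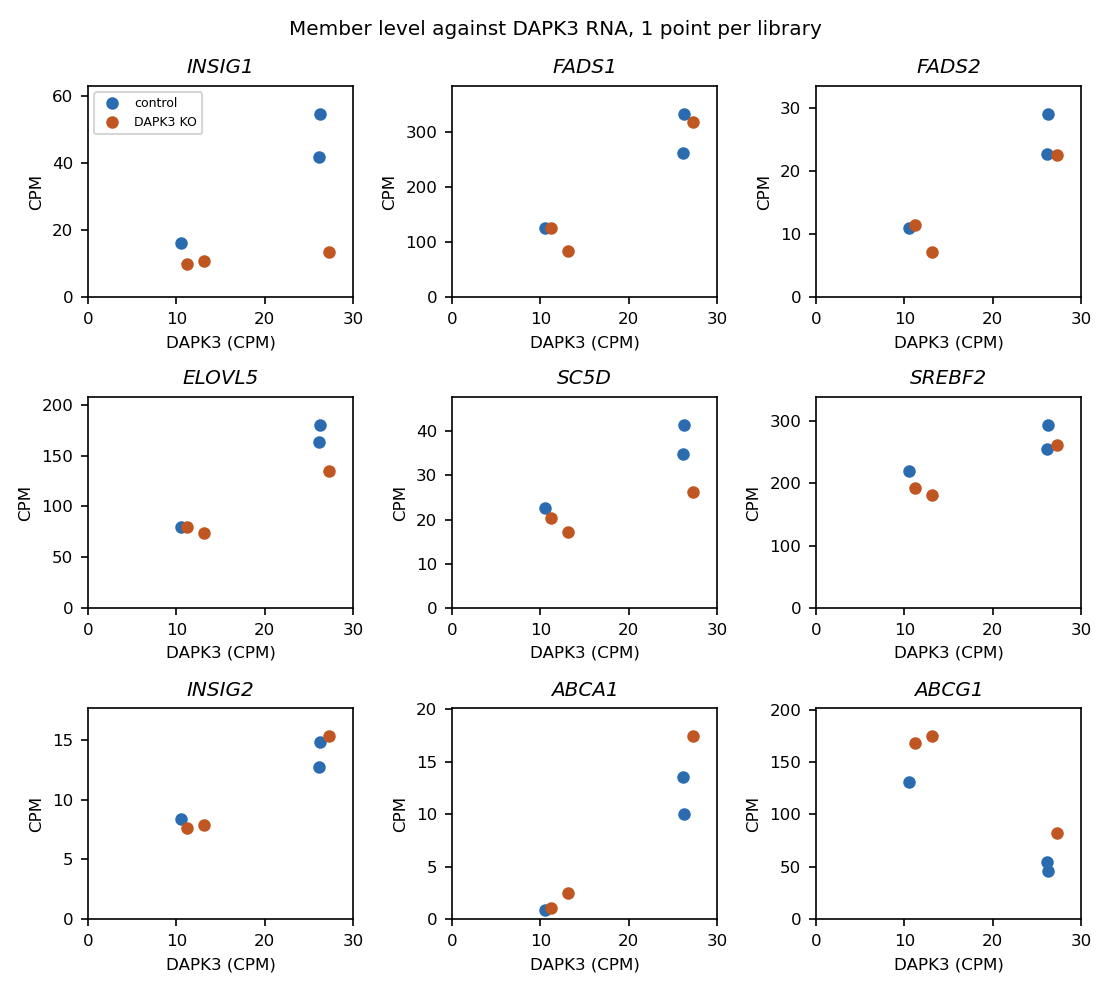
CPM of 9 genes (y axis, from 0) against DAPK3 CPM (x axis), 1 point per library, blue for control and orange for DAPK3 KO. INSIG1 is high in 2 controls only and low in the DAPK3 KO library with 27.2 CPM of DAPK3, whereas FADS1, FADS2, INSIG2 and ABCA1 are high in all 3 libraries on the right and ABCG1 is low in them.

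The libraries were also taken at each DAPK3 level. Among the libraries with the most DAPK3, DAPK3 KO R2 was set against control R1 and R3, and among the others DAPK3 KO R1 and R3 against control R2. At both levels 24 of 38 genes had no overlap with DAPK3 KO lower, and 2 with DAPK3 KO higher, against 18.3% and 19% of all genes tested. The 24 included 11 of 11 sterol genes, 5 of 7 mevalonate genes, 6 of 11 fatty acid genes, INSIG1 and STARD4. A gene whose labels do not overlap is lower at both levels by construction, which holds for 17 of the 24 and for 9 of the 11 sterol genes, and 1 arm of each level is a single library. The 7 that this did not fix were MVK, FDPS, TM7SF2, SC5D, ELOVL5, ELOVL6 and ACSS2. Of S phase genes 18 of 20, and of G2 and M phase genes 19 of 20, were lower at both levels.

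When the log2 CPM of DAPK3 entered the edgeR fit beside the label, 19 of the 38 genes were lower in DAPK3 KO at an unadjusted p under 0.05, against 8.38% of all genes tested. None was called after adjustment, as was the case for 0% of all genes in the lower direction, with 2459 genes at an unadjusted p under 0.05. INSIG1 stood at −1.34 (SE 0.24), HMGCS1 at −1.07 (SE 0.28) and NSDHL at −0.70 (SE 0.16), close to the values without the covariate for NSDHL and nearer to 0 for INSIG1 and HMGCS1. ABCG1 stood at 0.69 (SE 0.12), and FADS1 at −0.23 (SE 0.22). The smallest adjusted p of this fit was 0.108, a value that INSIG1 and ABCG1 had.

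Without both R2 libraries, label and DAPK3 level went together by the choice of libraries, and 15 of the 38 genes were called lower and 1 higher by edgeR at an adjusted p under 0.05, against 15.2% and 12.2% of the 14846 genes tested. The 15 mixed both patterns. HMGCS1 (log2 fold change −1.68, SE 0.14, edgeR adjusted p = 0.000465), IDI1, FDFT1, SQLE, MSMO1, NSDHL, EBP and INSIG1 (−2.23, SE 0.18) also had a p under 0.05 with all 6 libraries. SC5D, INSIG2, SREBF2, FADS1 (−1.52, SE 0.22), FADS2, ELOVL5 and ABCA1 (−2.80, SE 0.40) did not, and these 7 are the genes that stood higher with DAPK3 RNA. ABCG1 was the 1 called higher, at 1.77 (SE 0.13). With a further library left out, the fits assume that the lone library of its label varies like the pair of the other label. Counts of genes called are therefore not given for them.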

How the data were processed

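Polyadenylated RNA was sequenced from 6 libraries on an Illumina instrument, per the labels' protocols. Values are the expected counts that the authors deposited, RSEM gene results per the file headers, which are estimates and need not be whole: 14 of the 38 genes had a value that was not whole. RSEM, Bowtie2, edgeR and GRCh38 are named in the submitters' processing notes, without versions, and no annotation or strand setting was given in the sources used here. Whether reads of a member and of a gene on the opposite strand were separated is therefore not known. RSEM divides reads shared with near-identical copies by estimate, which leaves genes with pseudogenes, such as HSD17B7 and FDPS, uncertain.

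Expected counts were rounded and fitted over the whole table with edgeR 4.0.16 (R 4.3.3), quasi-likelihood, with TMM factors, filterByExpr and no block, DAPK3 KO over control. Called means an adjusted p (Benjamini-Hochberg) under 0.05. The SE is the fold change divided by the square root of F, and CPM from the total times its TMM factor. Heatmap values use a pseudocount of 0.5. Alternatives were RLE or no factors, no filter, CPM of at least 1, the replicate block, single libraries left out, both R2 libraries left out, DAPK3 log2 CPM as a covariate, DESeq2 1.42.0 and limma-voom 3.58.1. The edgeR, limma-voom, DESeq2 and replicate block fits to all libraries were tested on simulated counts of independent libraries. The simulation held no split by DAPK3 RNA. It did not cover the fit with the DAPK3 covariate or the fits with libraries left out.

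The members, the lists and the alternatives were chosen with earlier results of these data known. Values in every library are given for members with an unadjusted p under 0.05 or no overlap between the labels and for INSIG1, INSIG2, SREBF1, SREBF2, FASN and SCD; those of PMVK, SC5D, FADS1, FADS2, ELOVL5, ABCA1 and ABCG1 were added after their values were seen. Lists of other pathway genes name up to 2 genes with the smallest p, and cell cycle lists their 2 most expressed genes; markers were named to check the cell line, those that split by DAPK3 RNA after their values were seen. Some genes that these rules would name are not reported here. Gene positions and exon overlaps are from GENCODE release 29 (GRCh38), exon length is the union of all exons, and promoter windows are from RefSeq (GRCh38.p14). Only 9866 of the genes tested matched a promoter window by symbol.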

Additional observations from a re-analysis of the deposited data

How the results depend on the processing

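The median log2 fold change of the 38 genes was negative in all 15 alternatives, from −0.54 to −0.29. None of the 21 members followed singly changed sign. Of these, 17 were chosen because their label groups did not overlap, so a change of sign was unlikely from the start. Among members not followed, ABCA1 changed from −0.23 to 0.39 and MYLIP from 0.02 to −0.06 with the DAPK3 covariate. SCAP changed from −0.03 to 0.08 without both R2 libraries. Without both R2 libraries 4055 of 14846 genes and 16 members were called by edgeR. In that fit 22 members were lower at an unadjusted p under 0.05. Of all 14846 genes tested there, 5940 passed that p in either direction. With all libraries, DESeq2 called 124 genes and 2 members. With single libraries left out, 0 genes and 0 members were called, and 7 to 15 members were lower at an unadjusted p under 0.05. The share of all genes tested at that p was not counted in these fits, nor with the replicate block below. In the comparison without both R2 libraries, leaving out a further library gave 2543 to 3700 genes called and 9 to 23 members called lower. Deviations from the group means correlated at −0.68, −0.86 and −0.73 between libraries of the same number, and at −0.62 to 0.82 between libraries of different numbers. Libraries of the same number differed in DAPK3 RNA level in each case. The correlations therefore cannot show whether the replicate numbers pair the libraries. With the replicate block 0 genes were called and 8 members were lower at an unadjusted p under 0.05. The causes of these differences were not tested. Genes with few counts, such as ABCA1 at 18 in 1 library, are limited by depth.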
